A study of Mus musculus with 6 samples.

Results

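Kruppel-like factors are zinc-finger transcription factors, named Klf in the mouse, that were followed here in endothelial-enriched RNA of mouse carotid arteries. They were chosen by name: all array probes annotated to Klf2, Klf3, Klf4, Klf5, Klf6, Klf7, Klf9, Klf10 or Klf13. These 9 genes, of 19057 named on the array, have 17 of the 45281 probes in the table, and 14 probes of 8 genes were bright enough to be tested. Stable flow was compared with disturbed flow, in which shear on the wall is low and changes direction, as at curves and branches of arteries. Both groups came from C57Bl/6J mice of the WT genotype, with no treatment named other than the flow, and comprised 3 stable flow and 3 disturbed flow arrays. The labels give no age, do not say how the flow was set, and do not say whether a sample is 1 animal or a pool, so the p-values below describe array-to-array spread, which may be purely technical.

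Laminar shear on the endothelial surface induces Klf2 and Klf4 through a kinase cascade that ends in ERK5 and the MEF2 factors, and the proteins of the CCM complex hold that cascade back. In endothelium both factors raise genes such as Nos3, the endothelial nitric oxide synthase, and lower genes of inflammation and coagulation. All members bind CACCC or GC-rich elements through a shared block of zinc fingers at the C-terminal end. Klf3 is mainly a repressor, Klf6 and Klf10 are induced by injury or TGF-beta, and Klf9 and Klf13 are widely expressed members of a related branch.

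The names of the groups carry a doubt that touches every signed value below. Arrays were grouped by the sample descriptions, which name the scanned array. The deposited series matrix goes against them: each of its 6 columns ranks the probes exactly as 1 of the scans does (rank correlation 1), and for all 6 columns that scan is described as the other flow group, with the same replicate number. Every difference below is described disturbed flow minus described stable flow on a log2 scale, and would have the opposite sign under the names of the matrix columns. All 3 stable flow arrays lay on slide 1 and all 3 disturbed flow arrays on slide 2, so slide and flow cannot be told apart. Stable flow replicate 2 stood apart, with 9.74% of all probes above background (detection p under 0.05) against 19.6% to 35.0% on the others, and its signals spanned a narrow range. Of the 17 Klf probes, 14, 6 and 10 were above background on the stable flow arrays in order of replicate, and 13, 14 and 13 on the disturbed flow arrays.

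The proximal promoters of Klf2 and Klf4 are shown because these were the members with the most similar profiles over the arrays. Each line gives the 250 bases before the transcription start, 5′ to 3′ on the gene's strand, from RefSeq on build GRCm38.p6. Klf2 lies at chr8:72318812-72319061 on the plus strand and Klf4 at chr4:55532476-55532725 on the minus strand. Capitals mark the GC box GGGCGG, the Klf element CACCC and the MEF2 consensus, each searched on both strands, where overlapping GC boxes run together.
Klf2: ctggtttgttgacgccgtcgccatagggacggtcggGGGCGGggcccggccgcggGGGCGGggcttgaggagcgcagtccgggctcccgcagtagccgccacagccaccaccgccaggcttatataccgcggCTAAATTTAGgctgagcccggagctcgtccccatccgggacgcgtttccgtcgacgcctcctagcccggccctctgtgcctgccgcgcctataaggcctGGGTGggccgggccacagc
Klf4: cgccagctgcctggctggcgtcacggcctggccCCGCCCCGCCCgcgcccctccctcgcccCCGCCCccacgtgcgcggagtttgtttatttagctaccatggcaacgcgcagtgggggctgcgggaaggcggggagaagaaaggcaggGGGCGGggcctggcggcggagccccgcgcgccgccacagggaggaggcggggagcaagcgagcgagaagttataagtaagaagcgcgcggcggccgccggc
The Klf2 window held 1 match to the MEF2 consensus, CTAAATTTAG, 118 to 109 bases before the start, 2 GC boxes, and 1 CACCC element on the minus strand. The Klf4 window held 4 GC boxes, 0 CACCC elements and 0 matches to the MEF2 consensus. Over 32851 promoter windows of the same length, 2.92% held the MEF2 consensus, 32.7% a GC box and 52.0% a CACCC element. The GC content was 71.2% for Klf2 and 74% for Klf4, against a median of 52.4% over all windows. These shares are therefore not those of windows with a like GC content. A match here is a description of the letters and not a site of binding.

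No Klf probe passed the test between the described flow groups, and the SD of at least 1 group was larger than the difference for all but 1 of them, a Klf6 probe (ILMN_2731949). With limma, 0 of the 14 tested Klf probes had an adjusted p under 0.05, against 0% of all 12546 tested probes, and their adjusted p ranged from 0.890 to 0.960. At an unadjusted p under 0.05 there were 0 Klf probes, against 2.69% of all tested probes, and the described groups overlapped for all 14, where they did not for 9.68% of all tested probes. The difference was positive for 10 Klf probes and negative for 4, with a median of 0.51, while 57.4% of all tested probes were positive and their median was 0.10. These counts depend on the filter, which some positive probes passed mainly through the disturbed flow arrays. Klf2, for example, was above background on 1 stable flow and 3 disturbed flow arrays. Among probes above background on all 6 arrays, 2 Klf probes were positive and the 4 negative ones remained. The median of all probes was then -0.21. For the gene lists below, 57.4% positive and a median of 0.10 are likewise the values over all tested probes.

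**Figure D1:**
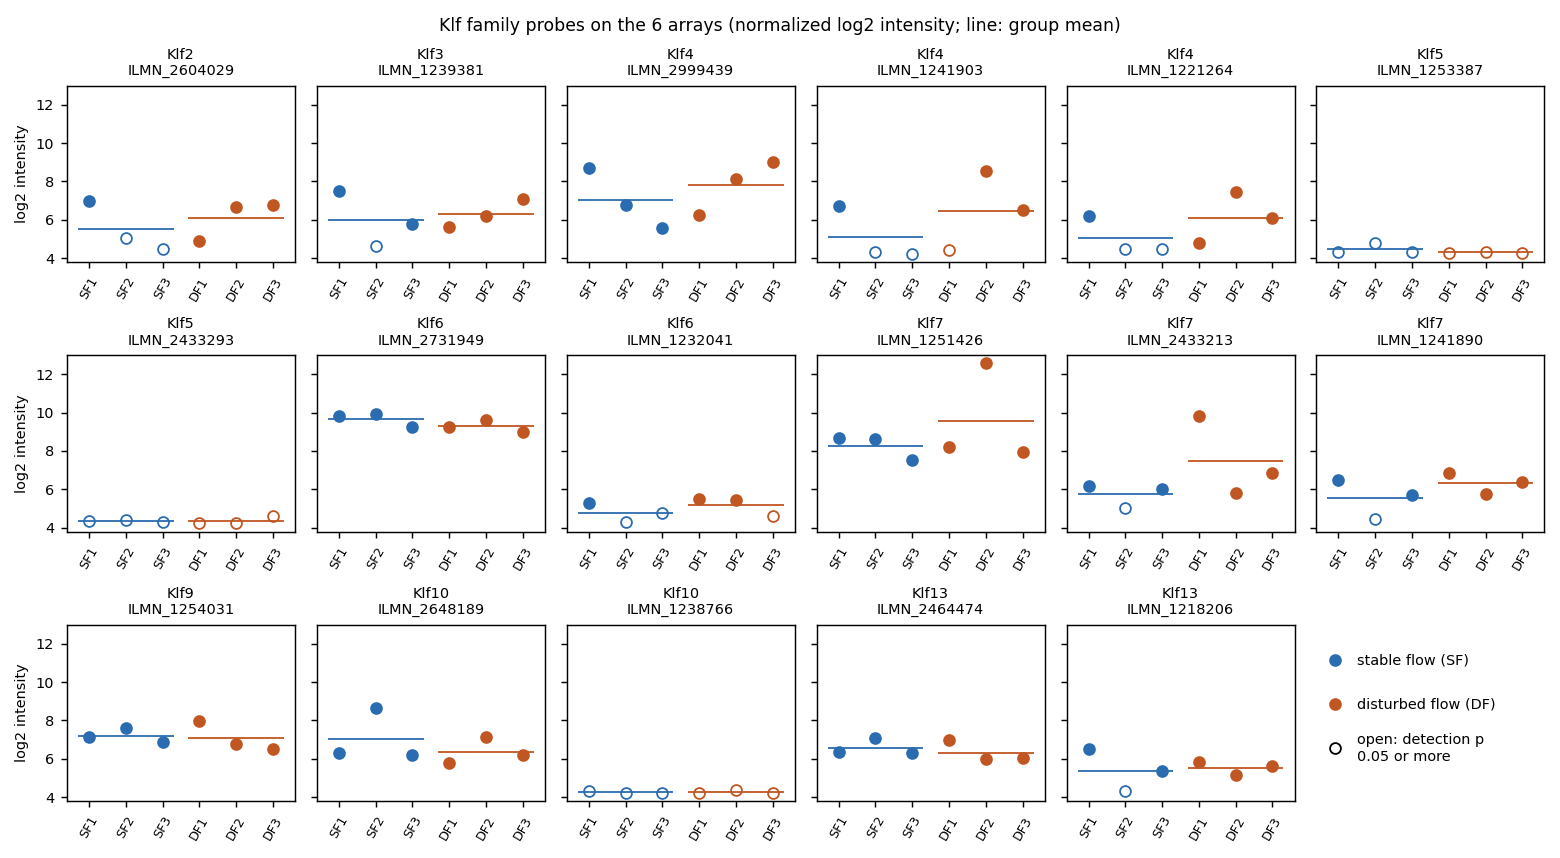
Normalized log2 intensity (y axis) of each of the 17 Klf probes on the 6 arrays (x axis), with stable flow (SF) in blue and disturbed flow (DF) in orange, a line at each group mean and open circles where the detection p was 0.05 or more. Klf2 and the 3 Klf4 probes are high on SF1, DF2 and DF3 and low on SF2, SF3 and DF1.

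Klf2, the flow-induced factor that raises Nos3 and thrombomodulin in endothelium, was measured by 1 probe (ILMN_2604029). Its unprocessed signal was 336, 93.4 and 104 on the stable flow arrays, in order of replicate as throughout, and 102, 158 and 113 on the disturbed flow arrays, where the median of all probes ranged from 77.6 to 110 between arrays. After normalization the log2 intensities were 6.99, 5.04 and 4.46 under described stable flow and 4.89, 6.68 and 6.76 under described disturbed flow. One stable flow array was thus the highest of all and 1 disturbed flow array lay with the low stable flow arrays. Klf2 was above background on 1 stable flow array and on all 3 disturbed flow arrays. The difference was 0.61 (SE 0.78, 95% interval -1.23 to 2.45, limma adjusted p = 0.895), from 5.50 ± 1.32 to 6.11 ± 1.06 (SD, n = 3 each). It fell to 0.09 without stable flow replicate 3 and rose to 1.22 without stable flow replicate 1. It was 0.10 with no normalization, 0.18 with cyclic loess, 0.24 with no background correction and 0.31 at a common 75th percentile.

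Klf4, the other shear-induced member, had 3 probes, which all placed the same arrays high and low. The brightest on average (ILMN_2999439) was above background on all 6 arrays, with log2 intensities of 8.69, 6.76 and 5.56 under stable flow and 6.23, 8.11 and 9.01 under disturbed flow. Its difference was 0.78 (SE 0.95, 95% interval -1.46 to 3.02, limma adjusted p = 0.895). Probe ILMN_1241903 had 6.71, 4.31 and 4.20 against 4.42, 8.52 and 6.49, a difference of 1.40 (SE 1.11). It was above background on 1 stable flow and 2 disturbed flow arrays, so 3 of its values lie at the floor. Probe ILMN_1221264 had 6.17, 4.46 and 4.45 against 4.77, 7.43 and 6.08, a difference of 1.07 (SE 0.77). On all 3 probes stable flow replicate 1 and disturbed flow replicates 2 and 3 were the high arrays. The probes differed in which of these was highest: disturbed flow replicate 3 on the first and disturbed flow replicate 2 on the other two. Over the 6 arrays ILMN_1241903 and ILMN_1221264 had a Pearson r of 0.998 with each other and of 0.787 and 0.782 with the first. The first probe's difference was 0.06 when stable flow replicate 3 was left out and 1.71 when replicate 1 was, and scaling to a common 75th percentile gave 1.49.

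Klf2 and Klf4 followed the same arrays. On Klf2 and on each Klf4 probe, the 3 highest arrays were stable flow replicate 1 and disturbed flow replicates 2 and 3, with a gap of 1.64 to the next array on Klf2 and of 1.31 to 2.08 on the Klf4 probes. The gap of 2.08 belongs to ILMN_1241903, which was above background on these 3 arrays only. That probe entered the test through the arrays where it was high, and its gap starts at the floor, so its match is not a separate check. Among all tested probes 9.09% had these 3 arrays highest, and 5 of the 14 Klf probes did, the fifth being Klf3. The arrays were picked by Klf2, which matches by definition, and 3 of the other matches are probes of the single gene Klf4. The share of Klf probes is therefore not compared with that of all probes. By the names of the matrix columns, the same 3 scans would be disturbed flow replicate 1 and stable flow replicates 2 and 3. Klf2 and the 3 Klf4 probes had these arrays highest with all 5 scalings tried, namely quantile normalization with and without background correction, a common 75th percentile, cyclic loess and no normalization. Quantile normalization uses only the ranks within an array, so background correction leaves the order of arrays unchanged. The settings with and without it are therefore not separate checks of that order. Without any normalization 2.75% of all tested probes had them highest. Since both genes split the arrays into 2 sets of 3, the relation within a set cannot be tested, and the measures of likeness below carry no p.

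The genes most like Klf2 over the 6 arrays were Tmem63a, of a family of mechanically gated ion channels, with a Pearson r of 0.987, LTO1 with 0.983, and Klf4 with 0.975, the third of 6979 other genes. Most like Klf4 were Bag5, a co-chaperone gene, with 0.984, Lamp1, of the lysosomal membrane, with 0.977, and Klf2. In both rankings a gene counts by its tested probe with the highest r. The place of Klf4 among the genes most like Klf2 depended on the scaling. It was 4 with no background correction, 139 with cyclic loess (r = 0.910), 167 with no normalization and 180 when arrays were scaled to a common 75th percentile (r = 0.885). Among the other members, r with Klf2 was 0.792 for Klf3 and -0.542 for Klf9, which became 0.158 at a common 75th percentile and 0.427 with no normalization. On the Klf13 probes, r with Klf2 was -0.652 (ILMN_2464474) and 0.445 (ILMN_1218206) with quantile normalization. For genes outside the family other than Edn1, the r given here is with quantile normalization only. The arrays share their depth of signal between genes, and 6 arrays leave high values of r to many genes.

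**Figure D2:**
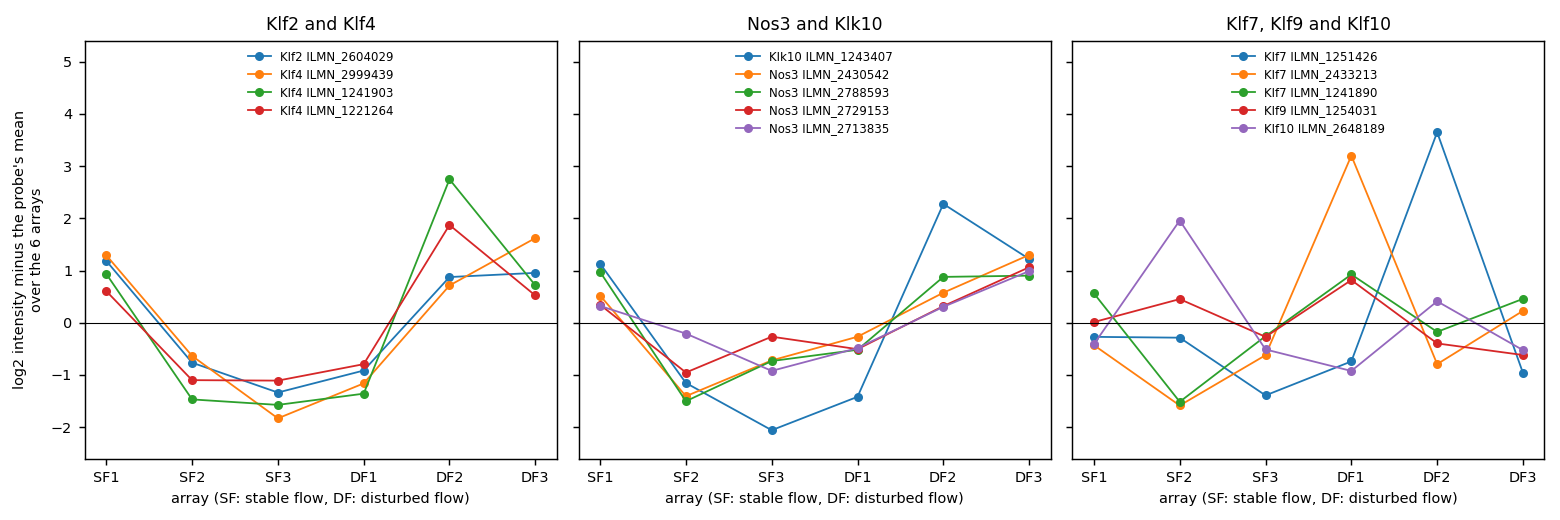
Log2 intensity minus the probe's own mean over the 6 arrays (y axis) by array (x axis, SF stable flow, DF disturbed flow), where lines only join the points of 1 probe. Klf2, the 3 Klf4 probes, Klk10 and the 4 Nos3 probes are highest on SF1, DF2 and DF3, while 2 of the 3 Klf7 probes peak on DF1 and the other on DF2.

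Of 10 tested genes known to be raised by Klf2 or Klf4 in endothelium, 0 passed the test, 7 were higher and 3 lower under described disturbed flow, and the median difference was 0.30. Klk10, a kallikrein-related gene that depends on flow, had log2 intensities of 8.66, 6.37 and 5.47 under stable flow and 6.11, 9.80 and 8.75 under disturbed flow. Its r was 0.954 with Klf2 and 0.904 with Klf4, and its difference was 1.39 (SE 1.12, limma adjusted p = 0.890). Nos3 was singled out after its values were seen. The probe that stands for it had 6.18, 5.65 and 4.94 against 5.38, 6.17 and 6.85, with an r of 0.901 with Klf2 and 0.967 with Klf4. All 4 tested Nos3 probes and the Klk10 probe had the same 3 highest arrays as Klf2 with each of the 5 scalings. On the Nos3 probes the gap to the next array was 0.512 to 1.396 with quantile normalization. It narrowed to between 0.167 and 0.692 with cyclic loess and to between 0.054 and 0.208 with no normalization, so the Nos3 order was then narrow. As above, quantile normalization with and without background correction cannot differ in this order. With quantile normalization, Tek, the angiopoietin receptor, and Aqp1, a water channel gene, shared them too. Thus 4 of the 10 genes did, against 9.09% of all tested probes. This order was not particular to the list. The endothelial marker genes Egfl7 and Cdh5 had the same 3 highest arrays with quantile normalization, as did the summed endothelial markers below. Tek and Aqp1 did so narrowly, beside the gap of 1.64 on Klf2. For Tek the lowest of these 3 arrays had 7.357 and the highest other array 7.159, and for Aqp1 11.515 and 11.33. Their order is given with quantile normalization only. By the same count, 2 of 10 tested flow sensors and CCM complex genes matched, and 1 of 7 of the ERK5 and MEF2 route. The remaining genes raised by Klf2 or Klf4 did not match. Among them S1pr1, a sphingosine phosphate receptor gene, had 6.05, 4.84 and 6.66 against 5.66, 5.38 and 4.46. Its r with Klf2 was -0.364.

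Of 6 tested genes known to be lowered by Klf2 or Klf4, 0 passed the test, 1 was higher and 5 lower, with a median of -0.21, and 0 had the 3 highest arrays of Klf2. Edn1, the gene of the vasoconstrictor endothelin-1, had 8.36, 7.81 and 8.08 under stable flow and 8.81, 6.06 and 5.55 under disturbed flow. It was low on 2 of the arrays with high Klf2 and Klf4 and high on the other one, stable flow replicate 1. Its difference was -1.28 (SE 0.82, limma adjusted p = 0.890), and its r with Klf2 was -0.582, which became -0.074 at a common 75th percentile and 0.24 with no normalization. Vcam1, an adhesion molecule for leukocytes, had 7.43, 8.82 and 7.89 against 9.05, 8.23 and 8.94 (difference 0.69, SE 0.47), values that overlapped.

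Upstream of Klf2 and Klf4, 0 of 7 tested genes of the ERK5 and MEF2 route passed the test, with 6 higher, 1 lower and a median of 0.48. The 6 higher genes were each above background on 1 stable flow array and on 2 or 3 disturbed flow arrays. The lower gene was above background on 3 and 1. They thus entered the test mainly through the group where they were higher, so these counts and the median are not read as a direction. Mef2d, a MEF2 factor gene, had the smallest p, with 4.84, 7.34 and 5.29 against 4.77, 4.43 and 4.51 (difference -1.25, SE 0.65). Its high value lay on stable flow replicate 2, where fewest probes were above background. Hdac5, a deacetylase that represses MEF2, differed by 1.11 (SE 0.64), and the kinase gene Map3k3 by 0.62 (SE 0.36). Of 10 tested flow sensors and CCM complex genes 0 passed, with 6 higher, 4 lower and a median of 0.07. Plxnd1, a guidance receptor that also senses flow, had 5.71, 4.77 and 5.75 against 6.21, 6.53 and 7.13, groups that did not overlap (difference 1.21, SE 0.43, limma adjusted p = 0.890). Its r with Klf2 was 0.503.

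**Figure D3:**
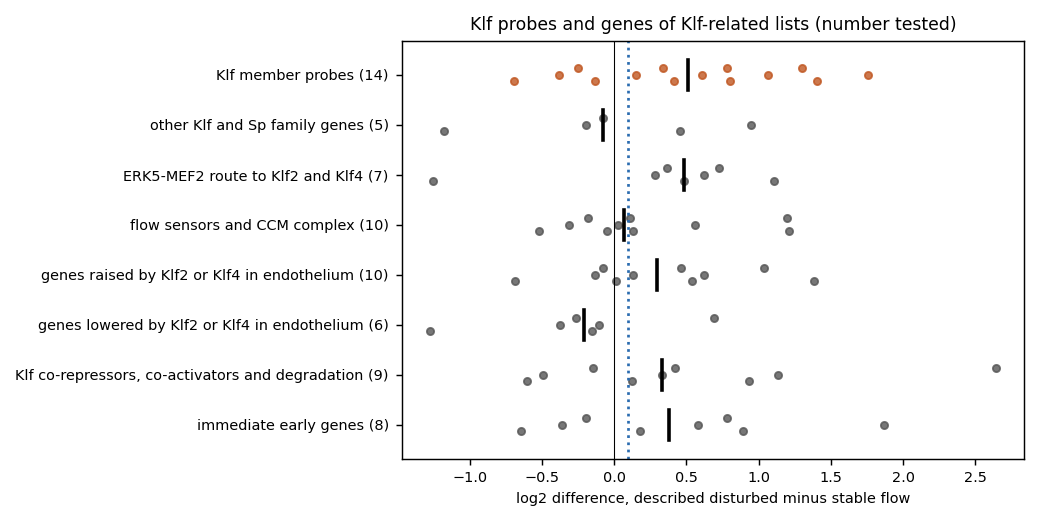
Log2 difference, described disturbed minus stable flow (x axis), of the 14 tested Klf probes and of the genes in 7 Klf-related lists, with the number tested in brackets, a black bar at each median and a dotted line at the median of all tested probes (0.10). The Klf probes spread from -0.69 to 1.76, and 0 points in the plot passed the test.

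The remaining members did not follow Klf2 and Klf4, with the partial exception of Klf3. That repressor had 7.48, 4.63 and 5.80 under stable flow and 5.64, 6.17 and 7.10 under disturbed flow (ILMN_1239381). Its 3 highest arrays were those of Klf2, with a gap of only 0.38 to the next, and this order did not hold with cyclic loess or with no normalization. The difference was 0.34 (SE 0.75). Leaving out stable flow replicate 2 made it -0.34, and cyclic loess -0.21.

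Klf7, a factor known from neuronal and fat cell development, had 3 probes that disagreed. The brightest (ILMN_1251426) had 8.65, 8.64 and 7.53 against 8.18, 12.57 and 7.96, with an unprocessed signal of 6440 on disturbed flow replicate 2 and of 121 to 713 on the other arrays. A second probe (ILMN_2433213) had 6.18, 5.03 and 5.99 against 9.81, 5.82 and 6.84, and its high array was disturbed flow replicate 1. The remaining probe (ILMN_1241890) had 6.51, 4.43 and 5.69 against 6.87, 5.77 and 6.40 and no array of that kind. Only 1.07% of all tested probes ranged more widely over the arrays than the first. The differences were 1.30 (SE 1.18), 1.76 (SE 0.97, limma adjusted p = 0.890) and 0.80 (SE 0.59). Each large value rested on its high array: the first was -0.20 without disturbed flow replicate 2 and the second 0.57 without disturbed flow replicate 1. ILMN_1241890 had an r of 0.760 with ILMN_2433213 and of -0.141 with ILMN_1251426.

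Klf6, a factor induced by vascular injury, was above background on all 6 arrays on 1 probe (ILMN_2731949), at 9.82, 9.92 and 9.27 against 9.26, 9.59 and 9.01. That was the smallest error among the members, with a difference of -0.38 (SE 0.36, 95% interval -1.22 to 0.45). A common 75th percentile made it 0.58, and no normalization 0.37. The other probe (ILMN_1232041), above background on 3 arrays, had 5.26, 4.27 and 4.75 against 5.50, 5.43 and 4.61, a difference of 0.42 (SE 0.42). The sign thus differed between the probes, which had an r of -0.062.

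Klf10, induced by TGF-beta, had 6.29, 8.66 and 6.19 under stable flow and 5.78, 7.11 and 6.18 under disturbed flow on its tested probe (ILMN_2648189). The value of 8.66 belongs to stable flow replicate 2, where the unprocessed signal of 122 was lower than the 249 and 154 of replicates 1 and 3. The order of the stable flow arrays on that probe depended on the scaling: cyclic loess gave 6.19, 7.51 and 6.22, with replicate 2 highest, and a common 75th percentile gave 6.70, 5.92 and 6.09, with replicate 1 highest. The difference of -0.69 (SE 0.73) turned to 0.12 without that array. The other Klf10 probe and both Klf5 probes were above background on 0 of 6 arrays, so Klf5, a factor of proliferating smooth muscle, and the sequence that this second Klf10 probe covers have no measured level here.

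Klf9 (ILMN_1254031), a factor raised by glucocorticoids, had 7.15, 7.59 and 6.87 against 7.96, 6.74 and 6.52, a difference of -0.13 (SE 0.47). Klf13, a related member, had 6.33, 7.09 and 6.30 against 6.97, 5.97 and 6.02 on 1 probe (ILMN_2464474) and 6.49, 4.30 and 5.35 against 5.82, 5.17 and 5.61 on the other (ILMN_1218206). The groups overlapped on all 3 probes. The Klf13 differences were -0.25 (SE 0.43) and 0.15 (SE 0.57), and each turned sign without stable flow replicate 2, to 0.01 and -0.41. With arrays brought to a common 75th percentile, Klf9 had 0.47 and the Klf13 probes 0.19 and -0.17.

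**Figure D4:**
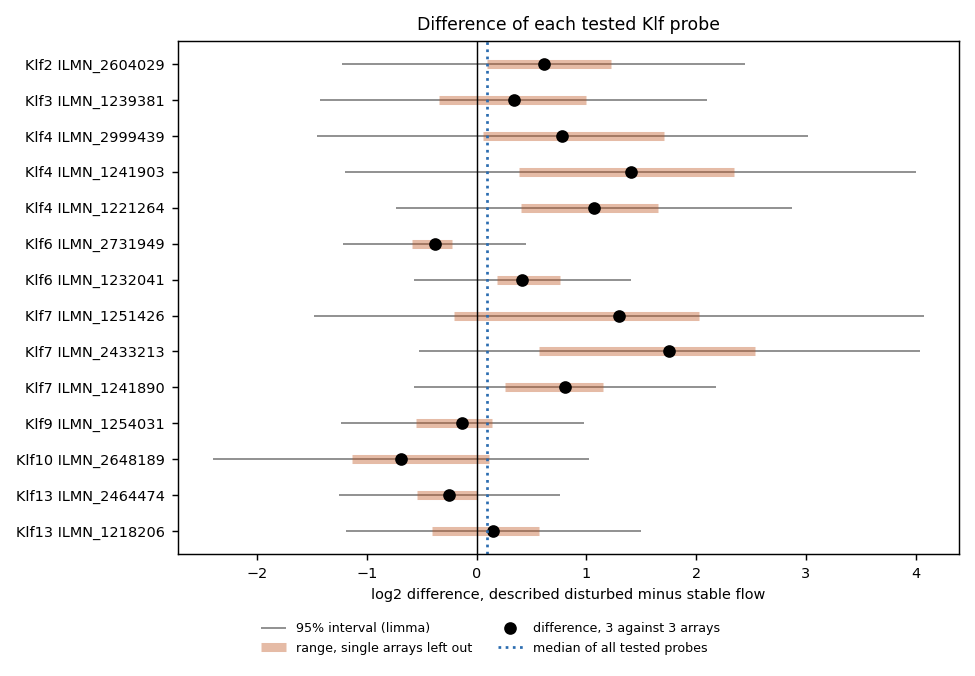
Log2 difference, described disturbed minus stable flow (x axis), of each of the 14 tested Klf probes (y axis): point, difference of 3 against 3 arrays; thin line, 95% interval; thick band, range when single arrays are left out; dotted line, median of all tested probes (0.10). All 14 intervals include 0.

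Klf2 and Klf4 were set against the other members by centring each gene's standing probe on its mean over the arrays. The mean of Klf2 and Klf4 was 1.24, -0.70 and -1.58 on the stable flow arrays and -1.04, 0.79 and 1.29 on the disturbed flow arrays. The mean of the 6 other tested members was 0.15, 0.28 and -0.48, and then -0.17, 0.56 and -0.34. Averaging 6 genes of unlike profiles narrows their mean, so the spans of the 2 means are not compared. The pair minus the others stood at -0.33 ± 1.23 under stable flow and 0.33 ± 1.25 under disturbed flow (SD, n = 3 each), a difference of 0.67 within the spread of either group. It was 0.04 without disturbed flow replicate 3, 1.38 without stable flow replicate 1, and 0.33 with no background correction, at a common 75th percentile or with no normalization. The members were chosen with results of these data known, so this value carries no test.

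Other members of the family and the related Sp factors were mostly dim. Of 17 such genes 16 had probes, and 5 had a tested probe: Klf8, Klf12, Sp1, Sp4 and Sp6. Of these, 0 passed the test, 2 were higher and 3 lower, with a median of -0.08. Klf12, a repressor, had 5.09, 4.34 and 4.26 against 7.26, 5.04 and 4.23, with its high value on disturbed flow replicate 1, and 3 of its 5 probes were tested. Klf1, the red cell factor, Klf14, Sp5 and Sp9 had 0 arrays above background.

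Markers of other cells are given as measured levels, and their part in the Klf values was not tested. In bulk RNA, fewer cells of a type and less RNA per cell cannot be told apart. Of 14 endothelial markers 7 were above background on all 6 arrays, while Kdr and Flt1 were on 0 arrays. The summed normalized intensity of the 12 tested ones was 4360, 2850 and 3120 under stable flow and 3380, 4370 and 3390 under disturbed flow, so the 3 arrays with high Klf2 and Klf4 were also the highest for this sum, though disturbed flow replicates 1 and 3 hardly differed. Sums ranged from 362 to 457 under stable flow and 293 to 664 under disturbed flow for 4 of 8 smooth muscle markers (Tagln and Lmod1 on 0 arrays), and from 157 to 1240 and 272 to 573 for 5 of 7 fibroblast markers. Of 8 macrophage markers only Lyz2 was tested (20.4 to 60.3 and 27.8 to 257), with Fcgr1, Itgam and Mrc1 on 0 arrays. Immediate early genes, which tissue handling induces, were tested for 8 of 17 and summed to 983, 1140 and 898 and then 1010, 1600 and 1710. Of the arrays high in Klf2 and Klf4, disturbed flow replicates 2 and 3 had the highest of these sums and stable flow replicate 1 did not. The median log2 intensities of the same genes were 6.37, 6.07 and 6.72 and then 6.67, 6.08 and 7.55, another order of arrays. A link with the Klf values was not tested.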

How the data were processed

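Endothelial-enriched carotid RNA was hybridised to Illumina bead arrays. Per the file headers, the deposited scanner table is not normalized and pairs each probe's signal intensity with a detection p-value. The submitters' processing notes name GenomeStudio 2011.1 without settings. The deposited series matrix holds further intensity values whose scaling no label states: linear, with a column minimum of -17.0, a maximum of 9720 and medians of 2.50 to 2.62. Its direction between groups opposes the sample descriptions.

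Background was estimated from the detection p-values and removed, and the arrays were quantile-normalized and log2-transformed (neqc, offset 16, limma 3.58.1, R 4.3.3). A probe was tested when its detection p was under 0.05 on 3 or more arrays (12546 probes). The test was lmFit with eBayes (two-sided, threshold 0.05), and p-values were adjusted over all tested probes by Benjamini-Hochberg. The test was tried on simulated data. The number of arrays limits the precision, with a median SE of 0.45. Probe symbols are those of the platform annotation, brought up to date by Entrez identifier: 34885 probes have 1 symbol, 18 have several and 10378 are unnamed here. A gene is stood for by its tested probe with the highest mean, except in the rankings of likeness, which take its tested probe with the highest r. From the lists, text names were limited to the 3 smallest p-values, with the following exceptions. Cell markers above background on 0 arrays were named (Kdr, Flt1, Tagln, Lmod1, Fcgr1, Itgam and Mrc1). Nos3, Aqp1, Egfl7, Cdh5, Dusp1, Jun, Klf1, Klf14, Sp1, Sp5, Sp6 and Sp9 were chosen after their values were seen. The comparison by the 3 highest arrays of each probe, with its background, and the likeness values under other scalings were also chosen after the data were seen, and were not tested. The members and lists were chosen with earlier results of these data known. Promoters of 7 members were found in RefSeq. Replicate numbers did not pair the arrays: deviations from the group means correlated at -0.035, -0.074 and -0.085 for numbers 1, 2 and 3. Between arrays of unlike number they correlated at -0.064 to 0.114. The replicate block used these numbers, and a pairing by anything else was not fitted. The 19 alternatives and their effects are given in the closing part.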

Additional observations from a re-analysis of the deposited data

How the results depend on the processing

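The count of probes past the test was 0 over all probes, 0 over the Klf probes and 0 over the listed genes under all 19 alternatives run: scaling, background, filter and weights, the moderated variance, the replicate block, matrix values and single arrays left out. Unadjusted limma p-values under 0.05 numbered 338 of 12546 probes in the main run, 15 of 12546 with no normalization and 2097 of 45281 with no filter. With the replicate block the smallest adjusted p over all probes was 0.962, and no Klf call changed. Klf probes with a positive difference numbered 10, but 12 at a common 75th percentile, 9 with cyclic loess, 2 when probes had to be above background on all 6 arrays, which leaves fewer probes, and 4 with the matrix columns as named. That number was 10 to 11 when single arrays were left out. The difference of Klf2 and Klf4 against the other members (0.67) was -0.54 with the matrix columns as named, 0.54 with those columns given to the array of the same rank order (an alternative chosen after seeing the data), 0.33 with no background correction, at a common 75th percentile and with no normalization, and 0.04 to 1.38 when single arrays were left out.

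With the matrix columns as named, every Klf difference turned sign by the construction of those columns: -0.46 for Klf2, -0.22 for Klf3, -0.69, -1.30 and -0.85 for the Klf4 probes, 0.37 and -0.36 for Klf6, -1.27, -1.54 and -0.62 for Klf7, 0.11 for Klf9, 0.61 for Klf10, and 0.20 and -0.14 for Klf13. For the other turns of sign the cause was not tested. With arrays scaled to a common 75th percentile the values were 0.58 for Klf6 (ILMN_2731949), 0.47 for Klf9, and 0.19 and -0.17 for the Klf13 probes. Cyclic loess gave -0.21 for Klf3, 0.060 for Klf9 and -0.24 for Klf13 (ILMN_1218206). No normalization gave -0.20 for Klf3, 0.37 for Klf6 (ILMN_2731949), 0.26 for Klf9 and -0.38 for Klf13 (ILMN_1218206). Array weights gave -0.10 for Klf3, 0.15 for Klf9, 0.0092 for Klf10 and -0.13 for Klf13 (ILMN_1218206). When single arrays were left out, values ranged from -0.34 to 1.00 for Klf3, -0.20 to 2.03 for Klf7 (ILMN_1251426), -0.55 to 0.14 for Klf9, -1.14 to 0.12 for Klf10, and -0.55 to 0.0069 and -0.41 to 0.57 for the Klf13 probes. Klf2, the 3 Klf4 probes, Klf6 (ILMN_1232041) and the other Klf7 probes kept their sign under each alternative that gave them a value except the matrix columns as named. Of these only Klf4 (ILMN_2999439) has a value when probes had to be above background on all 6 arrays. Klf2 ranged from 0.10 to 0.69 and Klf4 (ILMN_2999439) from 0.51 to 1.49 over the alternatives that kept all 6 arrays, the matrix values apart. Stable flow replicate 2 has few probes above background, which limits every value that rests on it.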

Other observations

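Co-regulators of the Klf proteins were tested for 9 of 12 genes. None passed limma's adjusted test (0 of 9), and 1 had an unadjusted p under 0.05, against 2.69% of all tested probes. Of the 9 genes 6 were higher and 3 lower, with a median difference of 0.33, where 57.4% of all tested probes were higher. Some higher genes passed the filter mainly through the disturbed flow arrays, such as Fbxw7, above background on 1 stable flow and 3 disturbed flow arrays. The counts are not read as a direction. Hdac3, a deacetylase of repressor complexes, had 5.53, 5.17 and 5.51 under described stable flow and 6.05, 7.31 and 10.77 under described disturbed flow (difference 2.64, SE 1.09, limma adjusted p = 0.890), with its high value on disturbed flow replicate 3. Fbxw7, of a ubiquitin ligase that degrades Klf2 and other factors, differed by 0.94 (SE 0.45), with 5.53, 4.25 and 4.56 against 5.36, 6.17 and 5.62, and had the 3 highest arrays of Klf2. Of the 8 tested immediate early genes 0 passed, with 5 higher and 3 lower. Among these, Dusp1 had an r of 0.767 with Klf2, and Jun and Egr1 had -0.275 and 0.278.

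Promoter windows of 250 bases also differed between the other members. Klf3 held 5 CACCC elements and 6 GC boxes, and Klf7 held 3 and 1. Klf6 held 4 CCAAT boxes, Klf9 held 3 and Klf13 held 2, where 33.8% of all windows held at least 1. The windows of Klf6, Klf9 and Klf13 had a GC content of 64.8%, 59.6% and 71.6%, against a median of 52.4% over all windows. The MEF2 consensus was found in the Klf2 window only, among the 7 members with a sequence.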
